A study of Mus musculus with 2 samples.

Results

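Of the 4681 YY1 peaks called in mouse muscle stem cells (MuSCs), 330 were intergenic, which is 7.05% of the list (95% exact binomial interval, 6.33 to 7.82%). A peak was counted as intergenic when its summit, the base with the highest pileup of fragments, lay more than 1000 bp from every transcript start of the GENCODE M21 basic annotation and outside every annotated gene span (build GRCm38/mm10). Of these, 25 stood in the Rn4.5s tandem array on chromosome 6 (chr6:47649921-47783166) and are described apart from the other 305. The list further held 3971 promoter peaks and 380 gene body peaks. The data came from a single YY1 chromatin immunoprecipitation library and a single background library, called input in the sample labels and IgG in the study's methods. There were no replicates, so the differences below are between sets of peaks of 1 library and not between animals. The MuSCs were pooled from 20 Ctrl mdx mice (Pax7 CreERT2/R26YFP; Yy1 +/+; mdx), which lack dystrophin, carry a tamoxifen-inducible Cre under the Pax7 gene and keep both Yy1 alleles. The age of these mice and whether they received tamoxifen are not given for this library in the sources used here. The study isolates MuSCs from muscle by their YFP reporter, and for this library the labels describe a culture step in growth medium while the paper describes the cells as freshly isolated, and which of these holds could not be settled. A peak list holds no expression values, so the cell type could not be checked against marker genes.

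YY1 is a zinc finger protein that binds a short site with the core ATGGC, activates or represses genes depending on its partners, and can bring distant DNA elements together. Most of its known binding is at CpG-rich promoters of genes read by RNA polymerase II. Intergenic DNA holds other kinds of elements. Distal enhancers carry the sites of lineage factors such as the E-box CAGCTG, which the myogenic factor MyoD recognises. Transfer RNA (tRNA) genes are read by RNA polymerase III from an internal promoter whose B box has the shape GTTCGANNC. The small RNA encoded by Rn4.5s is also a polymerase III transcript of rodents. Telomeres end every chromosome in tandem TTAGGG units.

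The sequences that carry the results are shown first, all from the GRCm38 RefSeq genome and written 5′ to 3′. The first set gives the genes under peaks with high fold enrichment, with the B box in capitals. These are the phenylalanine tRNA gene n-TFgaa7 (chr5:125406055-125406127, minus strand), the leucine tRNA gene n-TLcag10 (chr13:23453432-23453514, minus strand) and 1 copy of Rn4.5s (chr6:47654921-47655094, minus strand).
n-TFgaa7: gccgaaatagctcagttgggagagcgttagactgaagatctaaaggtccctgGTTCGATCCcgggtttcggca
n-TLcag10: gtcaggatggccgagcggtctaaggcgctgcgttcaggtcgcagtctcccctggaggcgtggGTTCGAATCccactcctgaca
Rn4.5s: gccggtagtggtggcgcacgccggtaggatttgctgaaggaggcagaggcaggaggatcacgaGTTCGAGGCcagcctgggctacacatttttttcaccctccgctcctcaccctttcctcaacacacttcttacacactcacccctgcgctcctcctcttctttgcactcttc
Both tRNA genes and the Rn4.5s copy hold a match to the same B box pattern.

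The second set gives windows around summits far from any tRNA gene, on the plus strand. In the windows near Twsg1 (chr17:65961752-65961952), Fgfr4 (chr13:55169117-55169317), Fos (chr12:85455421-85455621) and Serpinh1 (chr7:99360508-99360708) the capitals mark the E-box CAGCTG. In those near Mef2d (chr3:88138568-88138668), Nr4a3 (chr4:48043129-48043229) and Wdr45 (chrX:7714257-7714357) they mark the YY1 site AANATGGC or its reverse complement.
Twsg1: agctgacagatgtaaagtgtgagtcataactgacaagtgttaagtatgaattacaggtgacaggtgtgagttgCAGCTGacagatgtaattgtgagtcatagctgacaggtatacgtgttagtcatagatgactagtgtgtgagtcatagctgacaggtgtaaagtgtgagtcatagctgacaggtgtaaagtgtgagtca
Fgfr4: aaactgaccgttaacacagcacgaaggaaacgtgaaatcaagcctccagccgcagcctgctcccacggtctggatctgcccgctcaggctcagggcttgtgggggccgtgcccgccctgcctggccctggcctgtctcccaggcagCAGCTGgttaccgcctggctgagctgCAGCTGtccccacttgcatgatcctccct
Fos: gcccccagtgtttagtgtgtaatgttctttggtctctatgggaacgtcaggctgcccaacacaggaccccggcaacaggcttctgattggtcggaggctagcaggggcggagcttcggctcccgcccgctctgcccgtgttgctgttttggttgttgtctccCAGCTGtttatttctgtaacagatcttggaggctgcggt
Serpinh1: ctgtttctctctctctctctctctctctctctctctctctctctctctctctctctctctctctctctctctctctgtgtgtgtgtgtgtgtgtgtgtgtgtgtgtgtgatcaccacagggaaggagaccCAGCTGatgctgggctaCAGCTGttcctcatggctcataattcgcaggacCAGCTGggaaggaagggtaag
Mef2d: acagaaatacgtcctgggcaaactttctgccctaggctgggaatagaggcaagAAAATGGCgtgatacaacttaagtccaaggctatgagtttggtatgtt
Nr4a3: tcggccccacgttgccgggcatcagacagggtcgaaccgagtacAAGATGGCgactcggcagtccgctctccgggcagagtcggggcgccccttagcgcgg
Wdr45: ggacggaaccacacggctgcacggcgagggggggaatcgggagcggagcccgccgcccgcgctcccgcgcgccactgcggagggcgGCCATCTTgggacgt

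The 305 intergenic peaks outside the array fell into 6 kinds of sequence, assigned in a fixed order that was chosen after the values were seen. There were 47 peaks (15.4%) over an annotated tRNA gene, 29 (9.51%) with at least 4 tandem TTAGGG units, and 17 others (5.57%) whose local background was at least 20 fragments. A further 24 (7.87%) lay in sequence where more than 50% of the 50-base stretches have another copy elsewhere, and 26 (8.52%) within 1000 bp of a transcript start that RefSeq annotates and GENCODE basic does not. The remaining 162 (53.1%) had none of these features. Fold enrichment is the pileup at the summit over the local background, each with 1 added, and both fragment numbers were recovered from the deposited fold enrichment and p-value of every peak. The median fold enrichment was 5.92 over tRNA genes, 5.19 at RefSeq starts, 4.76 in the remaining peaks, 4.43 in repeated sequence, 2.12 at telomeric repeats and 2.04 at the other sites of high background. The array peaks had a median of 6.17 and the promoter peaks one of 5.13. In the plot of fold enrichment against local background the tRNA gene, RefSeq start, repeated and remaining peaks overlap on both axes, and the high-background sites stand at the lower right, where the limit on background that defines them places them.

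**Figure D1:**
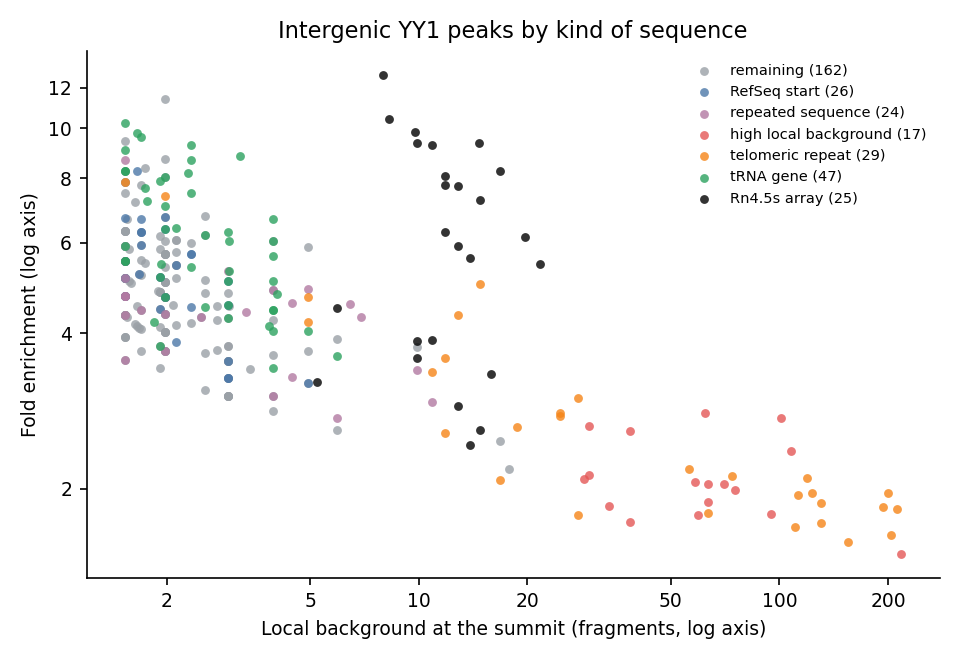
Fold enrichment (log axis) against local background in fragments at the summit (log axis) for the 330 intergenic peaks, 1 point per peak, coloured by kind of sequence. Telomeric and other high-background peaks extend to 217 background fragments at a fold enrichment near 2, while tRNA gene peaks stay at or below 5.93 background fragments.

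**Figure D2:**
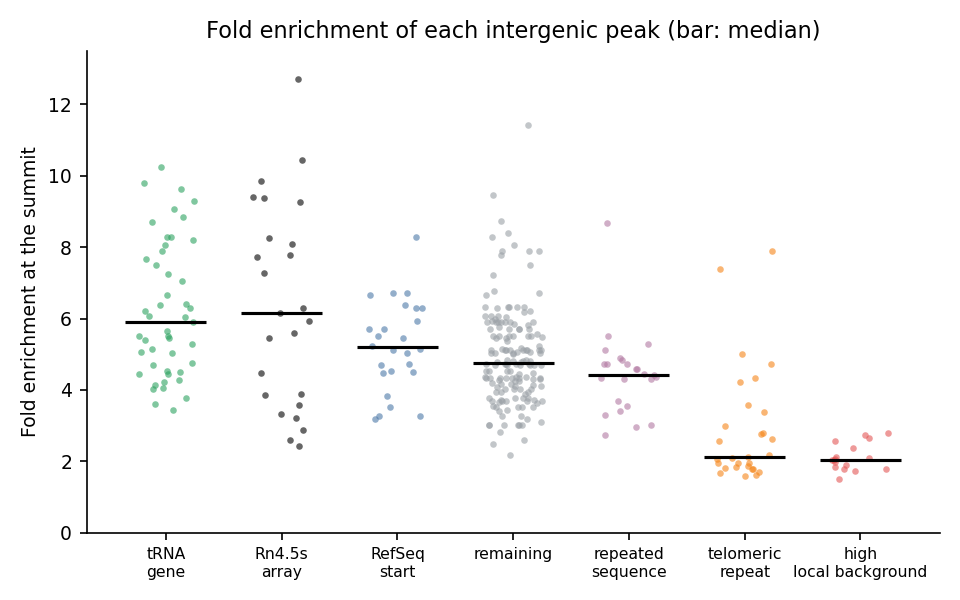
Fold enrichment at the summit for each intergenic peak by kind of sequence, with horizontal scatter for visibility only and a black bar at the median. The medians run from 6.17 in the array and 5.92 over tRNA genes to 2.04 at the other sites of high background.

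Among the 305 intergenic peaks outside the array, those over tRNA genes included many of the highest fold enrichments. This ranking leaves out promoter, gene body and array peaks, some of which had higher values. Of the 10 intergenic peaks with the highest fold enrichment outside the array, 7 overlapped a tRNA gene, and 12 of the 20 highest did. GENCODE basic lists no cytosolic tRNA genes, so these genes come from the RefSeq annotation, and tRNA genes were singled out after the values were seen. A tRNA gene lay under 15.4% of the 305 intergenic peaks, against 0.781% of promoter peaks (31 of 3971) and 1.32% of gene body peaks (5 of 380). These shares are given as a description, since the classes rest on an annotation that lacks these genes. A peak on a tRNA gene away from other starts and genes is intergenic by that rule. In RefSeq all 47 summits lay within 1000 bp of a start. Of the 403 nuclear tRNA genes in RefSeq, 103 (25.6%) were overlapped by a peak of any class and 63 (15.6%) by an intergenic peak, while 300 were overlapped by none.

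Among the highest tRNA peaks was that at n-TFgaa7 on chromosome 5 (chr5:125405583-125406319), where 22 fragments at the summit stood over 1.54 expected locally, a fold enrichment of 9.07. Others were the glycine gene n-TGtcc6 (chr11:69040804-69041549) with 36 fragments and 8.84, and the cysteine gene n-TCgca55 (chr11:97988178-97988523) with 28 fragments and 8.69. All these values lay within a narrow band, and with counts of 22 to 36 fragments their order is not resolved. The peak with the highest fold enrichment of the tRNA set (chr10:91181358-91182265, 10.3, 25 fragments) covered n-TWcca2 and its neighbour, but its summit lay 238 bp upstream of n-TWcca2 and 31 bp downstream of a RefSeq start of Tmpo, which encodes a nuclear lamina protein, so the peak cannot be given to either gene. The lowest tRNA peak had a fold enrichment of 3.43, at the methionine gene n-TMcat16 on chromosome 15.

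The summits stood close to the start of the tRNA genes. The set holds only peaks that overlap a tRNA gene, with a median width of 325 bp, so closeness follows in part from the selection. No expected distance was worked out. Measured from the 5′ end of the nearest tRNA gene, the 47 summits had a median position of -26 bp (quartiles -85.5 and 11.5, range -238 to 77). There were 41 summits within 100 bp of the 5′ end, 31 upstream of it, 15 inside the gene and 1 past its 3′ end. The B box was within 100 bp of the summit at 21 of the 47 (44.7%) and at 3 of the other 255 complete windows. The RefSeq tRNA genes with an intergenic peak held the GTTCGANNC pattern in 50 of 63 cases (79.4%), against 169 of the 300 (56.3%) without any peak, a description with no test. Of the 300, 54 were cysteine genes and 1 of these held the pattern, and without cysteine genes the shares were 82.0% (50 of 61) and 68.3% (168 of 246). A single tRNA gene lay under 33 of the peaks and several, up to 3, under the other 14.

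**Figure D3:**
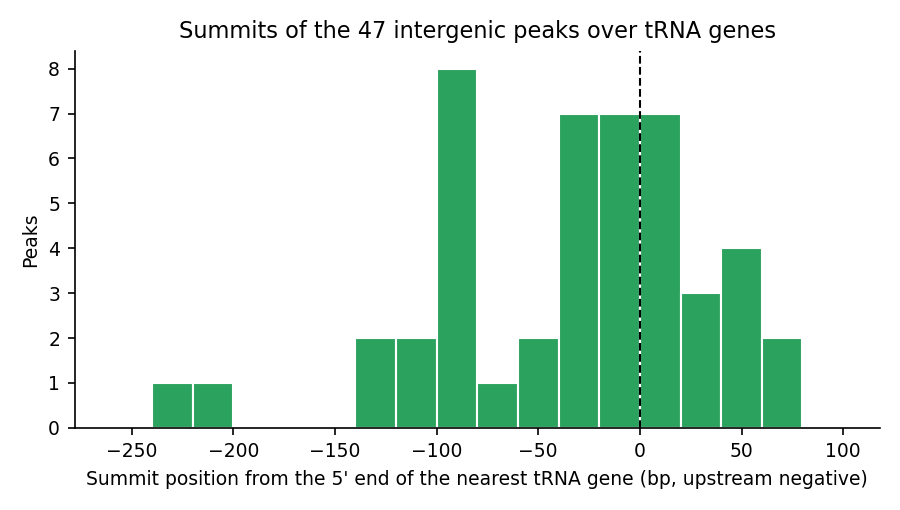
Number of intergenic tRNA peaks by the position of their summit in bp from the 5′ end of the nearest tRNA gene (dashed line, upstream negative), in bins of 20 bp. Of the 47 summits, 41 lie within 100 bp of the line.

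By amino acid, peaks of any class covered 13 of 25 leucine tRNA genes (52.0%, exact 95% interval 31.3 to 72.2%), 12 of them by an intergenic peak, and 11 of 24 arginine genes (45.8%, 25.6 to 67.2%). They covered 2 of 26 lysine genes (7.69%, 0.946 to 25.1%) and 2 of 56 cysteine genes (3.57%, 0.435 to 12.3%). These shares are a description, since the amino acids were picked by rank and neighbouring genes share peaks. Of the 47 peaks, 15 were on chromosome 11, 7 on chromosome 1 and 6 on chromosome 13. Only 2 of the 47 peaks lay mostly in repeated sequence.

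Compared with the 258 intergenic peaks elsewhere, those over tRNA genes reached the median fold enrichment of all peaks, 5.10, in 31 of 47 cases (66.0% against 34.1%) and the median of 14 fragments in 89.4% against 59.3%. These shares are given as a description, with no test, since the high fold enrichment of these peaks led to the grouping. The difference in the share at or above the median local background missed the threshold (66.0% against 60.9%, odds ratio 1.25, interval 0.623 to 2.57), as did that of width (44.7% against 39.1%, odds ratio 1.25, interval 0.634 to 2.46). The YY1 site AANATGGC was found in 2 of the 47 windows (4.26%) and in 9 of 255 others (3.53%; odds ratio 1.21, interval 0.124 to 6.15, adjusted exact p = 0.759). In both tRNA windows, at leucine genes, the match lay at the 3′ end of the gene or a few bases past it and not at the summit. The ATGGC core was in 21.3% against 24.7% (odds ratio 0.824, interval 0.345 to 1.81). These are 2-sided Fisher's exact tests over peaks, adjusted by the Benjamini-Hochberg method over the 30 comparisons that were added after the values were seen.

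In the Rn4.5s array the peaks followed the repeat. The reference holds 18 copies of the gene in this span, all on the minus strand and found by bases 31 to 90 of the printed copy with at most 8 mismatches. Their 5′ ends were a median of 4336 bp apart, and the widest interval, 54595 bp, contains 50000 unknown bases. Of the 18 copies, 17 had a summit within 200 bp of the 5′ end, at a median of -26 bp. These 17 peaks had a median of 105 fragments (range 55 to 146) against 12.8 in the local background (7.96 to 21.7), a fold enrichment of 7.78 (3.33 to 12.7) and a width of 786 bp. The 3 with the most fragments were chr6:47752629-47753865 with 146 fragments and a fold enrichment of 9.39, chr6:47763025-47763714 with 146 and 8.26, and chr6:47743633-47745325 with 127 and 6.17. The other 8 array peaks stood at -304 to -1286 bp from the 5′ end of a copy, and all of them had fewer fragments, 19 to 45, while their fold enrichments of 2.43 to 4.48 overlapped the range at the 5′ ends. At 24 of the 25 array peaks more than 50% of the stretches were repeated, so a read from 1 copy can be placed at another and the values of single copies are uncertain. The number of copies in these animals may differ from the reference, and the local background was higher in the array, at a median of 11.9 fragments against 1.98 for the other intergenic peaks. Within the array it was 12.8 at the peaks by a 5′ end and 10.4 at the 8 others, whose median fragment counts were 105 and 38.5. Its part in the result was not tested. None of the 25 windows held AANATGGC or the ATGGC core, and 9 held the B box, all at peaks by a 5′ end.

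**Figure D4:**
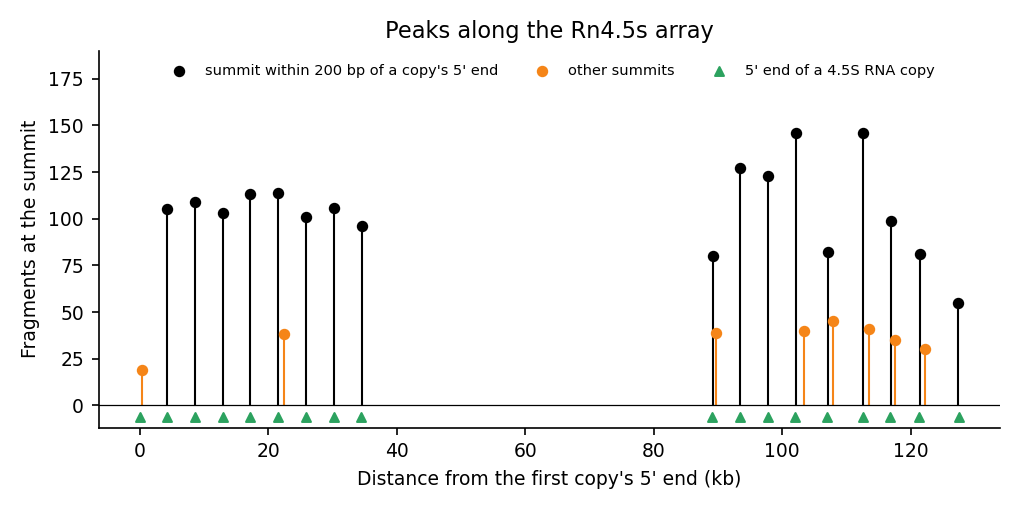
Fragments at the summit of the 25 array peaks against distance in kb from the first copy's 5′ end, with black points for summits within 200 bp of a copy's 5′ end and orange points for the others, and green triangles at the 18 copies. The black points reach 55 to 146 fragments and the orange points 19 to 45, and the empty middle is the stretch with 50000 unknown bases.

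Telomeric repeats formed a separate set with many fragments and little enrichment. At least 4 tandem TTAGGG units lay in 29 of 305 intergenic peaks (9.51%), against 2 of 3971 promoter peaks and 13 of 380 gene body peaks (3.42%; odds ratio 2.96, interval 1.46 to 6.33, adjusted exact p = 0.00443 against gene bodies). The runs were 7 to 84 units long. Of the 29 peaks, 17 had their summit within 1000 bp of the last known base of a chromosome, on 16 of the 21 chromosomes with peaks, and 12 lay further inside. The 4 peaks with the most fragments of all 305 were of this kind, at the ends of chromosome 7 (394 fragments, background 201), chromosome 18 (389 fragments, background 212), chromosome 14 (357 fragments, background 194) and chromosome 12 (333 fragments, background 204). Their fold enrichments were 1.96, 1.83, 1.84 and 1.63. In the peak on chromosome 7 each 50-base stretch occurred a median of 1083 times in the genome. A few telomeric peaks had little background, as at chr8:35134777-35135121, with 19 fragments, a background of 1.54 and a fold enrichment of 7.89 over a run of 15 units far from the chromosome end. Over the 29 the median was 85.0 fragments, with a background of 27.7.

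The other 17 peaks with a local background of at least 20 fragments had a fold enrichment between 1.49 and 2.80. The fifth highest fragment count of the 305, 325, belonged to this set (chr15:75086723-75086977, background 217, fold enrichment 1.49). It carries an AAGATGGC site 14 bp from the summit, yet its enrichment is the lowest of the 305. Another, at chr11:109011644-109012107, had 278 fragments over 101 in sequence that is almost all unique. The set also held 2 runs of 3 neighbouring summits, near the gene models Gm3318 on chromosome 10 and Gm5626 on chromosome 13. A background of at least 20 fragments was found at 35 intergenic peaks in all (11.5%), counting 18 telomeric ones, and at 9 promoter peaks (0.227%; odds ratio 56.9, interval 26.5 to 136, adjusted exact p = 6.61e-32). Against gene bodies, where 27 of 380 did (7.11%), the difference missed the threshold (odds ratio 1.69, interval 0.969 to 2.99, adjusted exact p = 0.129).

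A start site that GENCODE basic does not list lay close to the 26 peaks at RefSeq starts, with 17 summits within 500 bp of it and 6 within 100 bp. Many of these were alternative starts of known genes. Hic1, a transcriptional repressor found in mesenchymal progenitors, had a summit 287 bp upstream of its RefSeq start (fold enrichment 6.67, 17 fragments), and Hes6, an inhibitor of Hes1 in the Notch pathway, one 351 bp upstream (6.70, 16 fragments). Tns2 (4.70), Kcnn1 (5.70), Fbrs (5.70), Akt1 (3.28), Aff1 (3.53) and Slc12a9 (3.84) were others, and Tnrc18 had 2 such peaks, of 4.73 and 3.28. In 11 of the 26 the RefSeq gene was a numbered gene model. A CpG-rich window, defined as at least 50% G+C and an observed over expected CpG ratio of at least 0.6 within 100 bp of the summit, was present at 15 of them (57.7%). In the whole of RefSeq, 78 of the 305 intergenic summits lay within 1000 bp of a start (47 of them tRNA gene peaks), 36 in a gene and 191 remained intergenic. In the comprehensive GENCODE set only 11 changed to promoter. There were 188 that stayed intergenic in both.

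Among the remaining 162 peaks the highest fold enrichment, 11.4, was the highest of all 305. It stood 10.6 kb upstream of Twsg1, which encodes an extracellular regulator of bone morphogenetic proteins (chr17:65961471-65962322, 33 fragments over 1.98, q = 1.41e-24). Its printed window is built of near-identical short units and holds 5 matches to the AP-1 pattern TGANTCA and 1 E-box, though none of the 50-base stretches examined in this peak had another copy in the genome. The next in the named list was chr14:61757238-61757613, with 23 fragments and 9.46, 73.9 kb from the nearest start, and the third was chr4:133813288-133814418, with 25 fragments and 8.74, 2.73 kb from Gm12974. The latter was also the third widest of the 305, with 1131 bp. The widest was chr9:121929372-121930886 with 1515 bp and a fold enrichment of 8.68 in wholly repeat-masked sequence, and the next a tRNA peak on chromosome 1 (1243 bp, 7.90). Further peaks, chosen after their values were seen, included 1 at 5.58 kb downstream of the start of Socs3, an inhibitor of cytokine signalling (7.78, 20 fragments), 1 upstream of Gclc, which encodes the catalytic subunit of glutathione synthesis (7.21, 18 fragments), 1 near Nr4a1 (6.08, 18 fragments), and 2 upstream of the non-coding RNA Malat1 (6.06 with 29 fragments, and 4.81 with 13).

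Few genes of the lists examined had an intergenic peak nearby. Across all 21951 protein-coding genes, 2.12% had an intergenic summit within 50 kb of a start. The counts were 3 of 30 Notch pathway genes, 2 of 32 satellite cell and myogenic genes, 2 of 39 chemokines and receptors, 1 of 39 extracellular matrix and TGF-beta genes, 1 of 40 sarcomere genes, and 0 of the 16 macrophage and 14 fibro-adipogenic markers. Counts this small are given as a description. Hes1, the Notch target that keeps MuSCs quiescent, had 3 peaks around it. They lay 1731 bp upstream (chr16:30063077-30063793, 23 fragments, fold enrichment 8.07), 1067 bp upstream (chr16:30063961-30064460, 19 fragments, 7.89) and 5167 bp downstream of its start (chr16:30070022-30070598, 15 fragments, 5.93). The Notch ligand gene Dll4 had a peak 11959 bp away (11 fragments, 4.45), and Hes6 the one described above.

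Fgfr4, a growth factor receptor of myogenic cells, had a peak 16.6 kb from its start (chr13:55168953-55169397, 20 fragments over 1.54, fold enrichment 8.28). Mef2d, a myogenic transcription factor, had one 3.75 kb upstream (chr3:88138521-88138749, 17 fragments, 5.07). Col1a1, the main fibrillar collagen gene, had one 7.13 kb upstream (chr11:94928986-94929331, 12 fragments, 5.13), and the same peak was 44.4 kb from Sgca, which encodes a sarcoglycan. The chemokine receptor gene Ccr1 lay 43.2 kb from a peak of 6.39 and 18 fragments. This peak belonged to the group at RefSeq starts, and a summit 936 bp away had high local background and a fold enrichment of 2.12. The peak within reach of Ccl22 (41992 bp) was a tRNA gene peak of 4.54. Enhancers tested in transgenic mice, which RefSeq lists from the VISTA catalogue, lay under 5 of the peaks. They were mm260 18.4 kb upstream of Fos (6.20, 21 fragments), mm1108 4.67 kb from Zfp36l2 (5.23), mm318 13.3 kb from Ski (4.03), mm567 10042 bp from Fosb (3.78) and mm466 84.7 kb from the nearest start (2.60). That is 5 of 305 intergenic peaks (1.64%), beside 2 of 3971 promoter peaks and 3 of 380 gene body peaks.

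The E-box CAGCTG was common where the summit window was not CpG-rich. Over whole classes, 25.3% of gene body windows (96 of 380) held it and 16.9% of intergenic ones, a difference that was not tested. Gene body windows held the AP-1 pattern in 10.3% and the CTCF pattern in 7.63%. The remaining peaks divided into 61 CpG-rich and 101 other windows. The E-box was in 35 of the 101 (34.7%), against 27 of 202 windows 2000 bp to either side of the same summits (13.4%; odds ratio 3.42, interval 1.85 to 6.38, adjusted exact p = 0.0002), and against 10 of the 61 CpG-rich windows (16.4%, adjusted p = 0.0301). In the CpG-rich windows the difference from their flanks missed the threshold (16.4% against 10.8%, odds ratio 1.61, interval 0.589 to 4.28). In the 39 windows of peaks enriched at least 5-fold the result was no longer past the threshold, with 30.8% against 15.4% (odds ratio 2.42, interval 0.876 to 6.75, unadjusted exact p = 0.0872). This division was also made after the values were seen. The flanks were not matched to the summits for base composition, and the part of composition in these differences was not tested. The peaks with an E-box had a median fold enrichment of 4.73 and lay a median of 37.6 kb from the nearest protein-coding start. They included the peaks near Twsg1 (11.4), Fgfr4 (8.28), Fos (6.20), Serpinh1, a collagen chaperone gene (6.08), Capn2, a calpain gene (5.76), Rxra (5.56) and Col1a1 (5.13). A peak near D430041D05Rik had 6 of the sites, in near-identical tandem copies of a short unit, and 6 of the 35 windows had more than 1. The CTCF pattern CNAGGNGGC was also above its flanks, in 7.92% against 0.990% of windows that were not CpG-rich (adjusted exact p = 0.00979) and in 11.5% against 1.67% of those that were (adjusted p = 0.0223), while AP-1, TEAD and RUNX patterns were not past the threshold in either.

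The YY1 site itself was rare. AANATGGC was within 100 bp of 11 of the 302 intergenic summits with a complete window (3.64%), against 7.35% of promoter summits (odds ratio 0.476, interval 0.232 to 0.878, adjusted exact p = 0.0224). This difference was no longer past the threshold at a fold enrichment of at least 5 (unadjusted exact p = 0.162), over 5000 bp from a start (0.127), where other annotations also gave intergenic (0.0787) or in windows of 50 bp (0.0562). In flanking windows the share was 3.64% (21 of 577, odds ratio 1.00, interval 0.430 to 2.21). The difference from gene body summits, 1.84%, missed the threshold (odds ratio 2.01, interval 0.702 to 6.20). The AAGATGGC form alone was in 2.65% of intergenic windows. It was in 1.39% of flanks (odds ratio 1.93, interval 0.626 to 5.98) and 3.95% of promoter windows (odds ratio 0.661, interval 0.278 to 1.35), and neither difference was past the threshold. The ATGGC core was in 24.2% of intergenic windows, below both promoters (1230 of 3971, adjusted exact p = 0.0273) and flanks (32.1%, adjusted p = 0.0286). Among the 11 carriers the median fold enrichment was 4.73 (1.49 to 7.66), and none was among the 10 highest peaks. The site lay 2 bp from the summit 1974 bp upstream of Nr4a3, an orphan nuclear receptor gene (AAGATGGC, 13 fragments, fold enrichment 4.70), and 6 bp from the summit near Mef2d (AAAATGGC, 5.07). It was 36 bp and 40 bp away at the repeated sequences near Gm21182 (4.30) and Wdr45 (4.73), and 62 and 80 bp away at the tRNA genes n-TLcag10 (7.66) and n-TLaag8 (5.92). The others lay 74 to 90 bp from the summit, near Gm17619 (5.92), Zfp648 (3.94), Gm26703 (5.13) and the repeated sequence near Gm21614 (4.34), apart from the high-background peak on chromosome 15.

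Other patterns divided the intergenic peaks from the promoters. Intergenic windows held fewer ETS sites CCGGAAG (3.97% against 13.2%, adjusted exact p = 3.80e-06) and SP boxes GGGGCGGGG (5.96% against 15.2%, adjusted p = 1.15e-05), and more AP-1 sites TGANTCA (7.28% against 1.94%, adjusted p = 7.58e-06), E-boxes (16.9% against 10.9%, adjusted p = 0.00661), TEAD sites GGAATG (9.27% against 4.84%, adjusted p = 0.00504), RUNX sites AACCACA (3.97% against 1.28%, adjusted p = 0.00409) and B boxes (7.95% against 1.21%, adjusted p = 9.17e-10). In gene body windows the ETS (3.42%), SP (4.21%), TEAD (9.74%) and RUNX (2.89%) shares were near the intergenic ones. The B box share there was 1.32%, and these differences were not tested. Against the flanks of the intergenic summits, the AP-1, TEAD and RUNX shares were not past the threshold (6.41%, 11.1% and 5.20% in the flanks). The E-box share over all 302 windows also missed it (16.9% against 69 of 577 flanking windows; 95% interval of the odds ratio 0.988 to 2.25, adjusted exact p = 0.0712). The ETS (0.867%), SP (1.04%), CTCF (7.62% against 1.73%) and B box (1.73%) shares were higher at the summits than in the flanks, as was NRF1 (1.66% against 0 windows, adjusted exact p = 0.0101), while NF-Y was lower (12.3% against 18.7%, adjusted exact p = 0.0286). Against promoters the CTCF share was lower (12.1% at promoters, adjusted exact p = 0.0328). Without the tRNA gene peaks the calls of the B box against promoters and flanks were lost, with 1.18% of intergenic windows left and odds ratios below 1 (0.973 and 0.706), as were those of ETS and NF-Y against flanks and of the core and CTCF against promoters. Without repeated peaks the calls of the core, of CTCF against promoters and of NRF1 and NF-Y against flanks were lost, and the E-box against flanks came past the threshold (19.5% against 11.8%, adjusted exact p = 0.0135). A match is a description of the letters in these windows. The flanks were not matched to the summits for base composition, and 37.1% of summit windows were CpG-rich against 2.77% of flanking windows. The part of composition in the differences from flanks was not tested. All patterns were searched on both strands, by two-sided Fisher's exact tests adjusted over 26 comparisons.

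**Figure D5:**
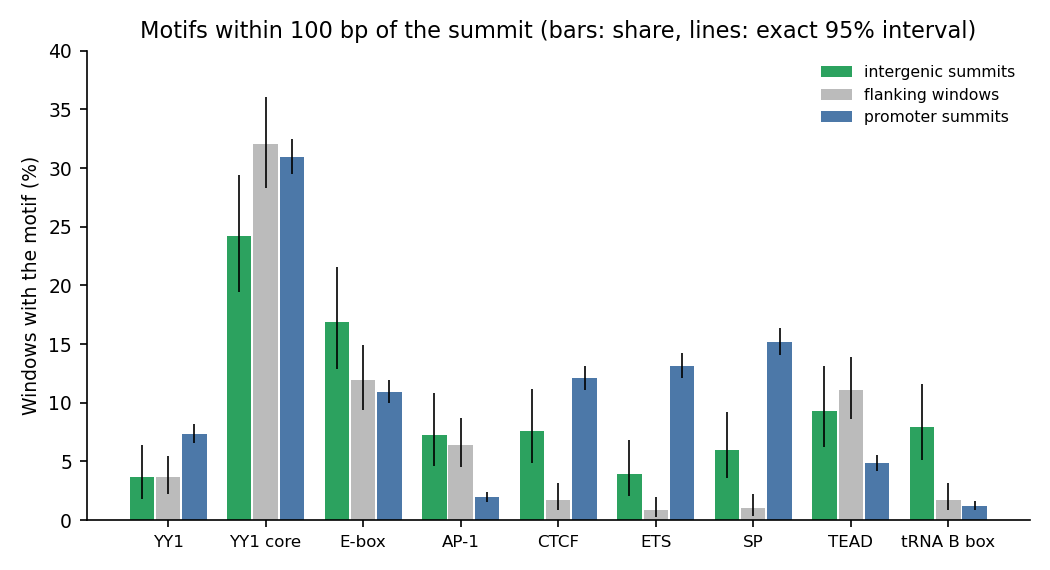
Share of windows with each pattern, in percent, within 100 bp of 302 intergenic summits (green), in 577 flanking windows (grey) and within 100 bp of 3971 promoter summits (blue), with exact 95% binomial intervals as lines. The YY1 site is at 3.64% in intergenic and flanking windows and at 7.35% at promoters, and the B box is highest at intergenic summits.

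The intergenic summits were less often CpG-rich than promoters and more often than the DNA around them. A CpG-rich window was present at 112 of 302 (37.1%), against 92.4% of promoter summits (odds ratio 0.0486, interval 0.0370 to 0.0635, adjusted exact p = 4.84e-113) and 2.77% of flanking windows (odds ratio 20.6, interval 11.8 to 38.2, adjusted p = 6.85e-41). The difference from gene bodies, 34.2%, missed the threshold (odds ratio 1.13, interval 0.816 to 1.57). The median G+C content was 56.2% in intergenic, 58.7% in gene body and 70.6% in promoter windows. Mostly repeated sequence made up 52 of 305 intergenic peaks (17.0%), against 2.85% of promoter peaks (odds ratio 7.01, interval 4.83 to 10.1, adjusted exact p = 4.99e-21) and 13.9% of gene body peaks (odds ratio 1.27, interval 0.818 to 1.97). Among peaks enriched at least 5-fold the share was 3.10% against 2.35% at promoters, and the difference was no longer past the threshold (odds ratio 1.33, unadjusted exact p = 0.547). Without telomeric and high-background peaks in either class the share was 10.04% and the odds ratio 3.87.

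The intergenic peaks were less enriched and narrower than promoter peaks. The median fold enrichment of all peaks was reached by 119 of 305 (39.0%), against 53.0% at promoters (odds ratio 0.567, interval 0.443 to 0.723, adjusted exact p = 7.69e-06) and 29.5% in gene bodies (odds ratio 1.53, interval 1.10 to 2.13, adjusted p = 0.0166). The median width of 354 bp was reached by 122 of 305, against 52.3% at promoters (odds ratio 0.607, adjusted exact p = 0.000103) and 34.5% in gene bodies (odds ratio 1.27, interval 0.916 to 1.75). In fragments at the summit the shares at or above the median were 63.9% in intergenic and 61.3% in promoter peaks, a difference that missed the threshold (odds ratio 1.12, interval 0.873 to 1.44). Against gene bodies the fragment share was higher (43.7% in gene bodies, odds ratio 2.28, adjusted exact p = 6.06e-07), as was that of background (51.3%, adjusted exact p = 0.0166). The local background was also higher than at promoters (61.6% against 52.1% at or above its median, adjusted exact p = 0.00295). These comparisons were adjusted over 16.

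By position, the 305 summits stood a median of 8.70 kb from the nearest start of any gene, and 20.6 kb from that of a protein-coding gene. There were 42 between 1 and 2 kb, 56 between 2 and 5 kb, 69 between 5 and 10 kb, 119 between 10 and 50 kb, 14 between 50 and 100 kb and 5 farther out. The nearest start lay downstream in 192 (63.0%). The farthest peaks were chr14:90911051-90911404, 191676 bp from the pseudogene Gm18082 and over 14 telomeric units (fold enrichment 4.71), and a pair in repeated sequence on chromosome 8, 177842 and 158160 bp from Gm20586 (4.41 and 2.95). Neighbouring summits within 10 kb of each other formed 24 runs with 56 peaks, of which 16 were pairs and 8 held 3 summits, the most in any run. In 11 of the runs every peak was over a tRNA gene, including 3 of the 8 longest, near Aurkb and Hes7 on chromosome 11 and near Olfr1368 on chromosome 13. The other runs of 3 were those around Hes1, near Gm25888 on chromosome 12, near Gm43907 on chromosome 6, and the pair of high-background runs on chromosomes 10 and 13.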

How the data were processed

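The peak list is that of 1 YY1 library, and no file of the background library was analysed here. Per the study's methods the authors aligned reads to mm10 with Bowtie2, removed redundant reads and ran MACS2 peak calling against the background at a p-value limit of 0.0001. Versions are not given in the sources used here. The deposited file gives for each peak a fold enrichment (a ratio), a −log10 p-value and a −log10 q-value, positions, and a display score that was not used. From these the number of fragments at each summit and its local background were worked back under the Poisson model of MACS2, and the p-value they give differed from the deposited −log10 p-value by at most 0.0003. The peak file holds no read totals, and no depth was used here, so the 8 to 394 fragments at a summit set the precision of a value, and intervals cover counting error only.

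Peaks were classed by their summit in GENCODE M21 basic. Windows of 100 bp to each side were read from the GRCm38 RefSeq genome, and 50-base stretches, every 10 bases, were counted in it on both strands. Flanking windows of the same size were centred 2000 bp away and left out where they met a peak. tRNA genes and VISTA enhancers came from RefSeq. Fisher's exact tests, two-sided and with conditional odds ratios, compared shares (SciPy 1.17.1, Python 3.11.15), and p-values were adjusted by the Benjamini-Hochberg method within each family of comparisons. Peaks are not replicates, and neighbouring peaks are not independent. Regions are named by a rule: the 10 of highest fold enrichment, 5 with most fragments, 3 widest, 3 farthest from a start, all with AANATGGC, the longest runs, the 3 array peaks with most fragments and list genes within 50 kb. Other named regions fall outside this rule and are examples picked with the values known, though this is said only for some of them. The members and lists were chosen with earlier results of these data known. The functions were tested on simulated data. Alternatives are given in the closing section. 1 list of marker genes and some of the named regions are not reported here.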

Additional observations from a re-analysis of the deposited data

How the results depend on the processing

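No paired analysis was possible because a single YY1 library was made. The number of intergenic peaks, 330, moved past 1.5 times only with protein-coding genes alone (511) and at a fold enrichment of at least 5 (145). Against promoters, the odds ratio of AANATGGC, 0.476, kept its direction and was no longer past the threshold at a fold enrichment of at least 5 (0.493), for summits over 5000 bp from a start (0.579), for those also intergenic in both other annotations (0.496) and in windows of 50 bp (0.417), all with fewer sites or fewer peaks. The odds ratio of mostly repeated sequence, 7.01, became 1.33 at a fold enrichment of at least 5 and 3.87 without telomeric and high-background peaks. The E-box result, 3.42, became 2.42 at a fold enrichment of at least 5, where 39 windows were left. Of the 26 motif comparisons, 16 were past the threshold, 10 without the tRNA gene peaks and 12 without repeated peaks (5 calls lost, 1 gained). The 10 list genes became 6 within 20 kb and 21 within 100 kb. Against flanking windows the odds ratio of AANATGGC, 1.00, has no direction: it was 0.892 where other annotations also gave intergenic, 0.869 without repeated peaks, 0.911 in windows of 200 bp, 0.675 with flanks 5000 bp away and 0.809 without tRNA gene peaks, and between 1.00 and 1.23 in the others, past the threshold in none. Of 47 settings of the tested shares other than this one, 41 kept direction and side, among them all settings for fold enrichment, width and CpG-rich windows. The settings without tRNA gene peaks, without telomeric and high-background peaks, and all those of the E-box, the motif family and the gene lists were chosen after seeing the data. With 8 to 394 fragments at a summit and no second library, small differences between single peaks were not detectable.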
